A study of Arabidopsis thaliana with 24 samples.

Results

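The glucosinolate genes of Arabidopsis thaliana were followed through single and combined stresses. They were taken as every row of the deposited table whose MapMan functional class contains the word glucosinolates, with 1 such locus left out, which gave 56 of 27655 genes. By their sub-class, 31 of the 56 belong to synthesis, 7 to regulation, 1 to transport, 16 to degradation and 1, AOP1, to no sub-class. The rule used no measured value. All plants were wild-type Col-0 grown on soil and treated 14 days after transplanting as seedlings, and whole rosettes were harvested as 3 samples per group. The salt group received 150 mM NaCl and the mannitol group 200 mM mannitol, each by watering 16 h before harvest, and the salt plus mannitol group received both in 1 solution. The heat group spent the last 4 h at 35 °C, the salt plus heat, mannitol plus heat and all-3-stress groups combined that heat with the same watering, and the control group stayed at 22 °C with neither. The labels record no watering of the control and heat groups. Where these are the baseline, effects of salt or mannitol and effects of watering cannot be told apart, and heated plants also stood in another cabinet. Whether each sample was a single plant or pooled plants is not stated, and the p-values cover only the spread among the libraries at hand.

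Glucosinolates are sulfur-containing defence compounds of the cabbage family. Aliphatic ones are built from methionine after its side chain has been lengthened, indole ones from tryptophan, and both pass through a core that adds sulfur, glucose and sulfate. In intact leaves they are stored apart from myrosinases, the thioglucosidases that start their breakdown, and specifier proteins and nitrilases then determine which products form.

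The libraries held 12.5 to 19.5 M reads assigned to genes, and 21871 to 22379 genes had a read. In all 24 libraries together, 20027 genes passed the filter on low counts, and 52 of the 56 glucosinolate genes were among them. The other 4, the nitrile specifier gene NSP2, the myrosinase gene BGLU34, the benzoate ligase gene BZO1 and the aromatic pathway gene CYP79A2, lay near 0 in every library and were not tested. Leaf photosynthesis markers summed to between 25032 and 66862 TPM (deposited transcript levels scaled per length and library), and root, flower and seed markers to at most 3.25, 0.833 and 0.873 TPM. The leaf list (5 of 5 genes detected) moved with treatment, at 32312 to 35497 TPM under heat and 25032 to 26355 TPM under all 3 stresses, against 57809 to 66862 TPM in controls, and guard cell markers (5 of 5) summed to 25.9 to 30.0 and 18.2 to 21.3 TPM in these groups, against 34.3 to 39.4 TPM in controls. The members of a list did not move alike. Under heat all 5 leaf means lay below control, from RBCS1A at 10779 against 24194 TPM to CA1 at 1451 against 1512 TPM. Of the guard cell means, those of FMA, MYB60 and HT1 were lower under heat (MYB60 6.11 against 12.6 TPM). Those of KAT1 and OZS1 were higher (OZS1 2.99 against 2.67 TPM). Under all 3 stresses OZS1 was at 2.68 TPM, and the other guard cell means lay below control. The part of these lists in the results was not tested. A change in whole rosettes can stem from less RNA per cell or from fewer cells of a type, and these cannot be told apart. Genes with close copies, such as TGG1 and TGG2, CYP79B2 and CYP79B3, CYP79F1 and CYP79F2, NIT1 to NIT3, SOT16 to SOT18, MYB28, MYB29 and MYB76, and FMO GS-OX2 to FMO GS-OX4, share sequence, so their separate estimates are less certain.

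In control rosettes the degradation genes were the more abundant class per unit of length. TGG1 and TGG2, the classical myrosinases, averaged 1603 ± 127 and 601 ± 40.3 TPM (SD, n = 3). ESM1, an epithiospecifier modifier, averaged 1208 ± 9.50 TPM, and the nitrilase NIT1 averaged 1113 ± 31.3 TPM. Among synthesis genes the highest control levels were 314 ± 37.8 TPM for AT2G25450, annotated as a 2-oxoglutarate-dependent dioxygenase, 252 ± 18.3 TPM for BCAT4 and 240.2 ± 11.4 TPM for MAM1. BCAT4 and MAM1 act in the first steps of methionine side chain elongation. The libraries of the last pair overlapped, since BCAT4 and MAM1 in controls were at 266, 258 and 231 TPM and 243, 249.8 and 228 TPM.

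A gene is said to have risen or fallen where edgeR's quasi-likelihood test gave a Benjamini-Hochberg adjusted p under 0.05 over all 20027 genes, and changes are log2 fold changes ± SE with n = 3 libraries per group. Against control, salt lowered 16 of the 52 genes and raised 0, where 6.41% of all genes tested fell and 4.54% rose. For the count of 0, unadjusted p under 0.05 gave 2 rises, DESeq2 gave 1 and limma gave 0. Mannitol raised 5 and lowered 10 (all genes 12.2% and 11.4%), and salt plus mannitol raised 8 and lowered 19 (15.4% and 17.2%). Heat raised 13 and lowered 21, against 31.7% and 30.9% of all genes. Salt plus heat raised 6 and lowered 28 (31.7% and 31.5%), mannitol plus heat raised 9 and lowered 19 (32.6% and 32%), and all 3 stresses raised 5 and lowered 33 (33% and 32.7%). The median log2 fold change of the 52 genes was -0.33 under salt, -0.22 under mannitol, -0.28 under both, -0.20 under heat, -0.38 under salt plus heat, -0.15 under mannitol plus heat and -0.54 under all 3, and that of all genes lay between -0.01 and 0.00. As shares of the 52 genes, falls came to 30.8% under salt and 63.5% under all 3 stresses, and rises to 0% and 9.62%.

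These counts move with scaling and with single libraries. With library totals as the only scaling, which shifted the median of all genes up by 0.11 under salt, by 0.11 with mannitol added to it, by 0.12 for the mannitol and heat pair and by 0.17 under the triple stress, rises and falls numbered 1 and 9 for salt, 7 and 5 for mannitol, 9 and 13 for both, 14 and 15 for heat, 14 and 15 for mannitol plus heat and 8 and 26 for all 3. The salt count dropped to 8 without control 2 and to 6 without salt 3, and it was 27 (20 of them synthesis genes, against 11) with only the salt and control libraries in the fit. The mannitol count dropped to 9 without control 2. Of the 16 genes salt lowered, 6 were called whichever library was left out: CYP83B1, UGT74B1, SUR1, CYP79B3, SOT18 and MYB34. The corresponding counts were 8 of 15 for mannitol, 17 of 27 for salt plus mannitol, 23 of 34 for heat, 26 of 34 for salt plus heat, 21 of 28 for mannitol plus heat and 33 of 38 for all 3 stresses. Genes described below were called whichever library was left out, unless the libraries that end the call are named.

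**Figure D1:**
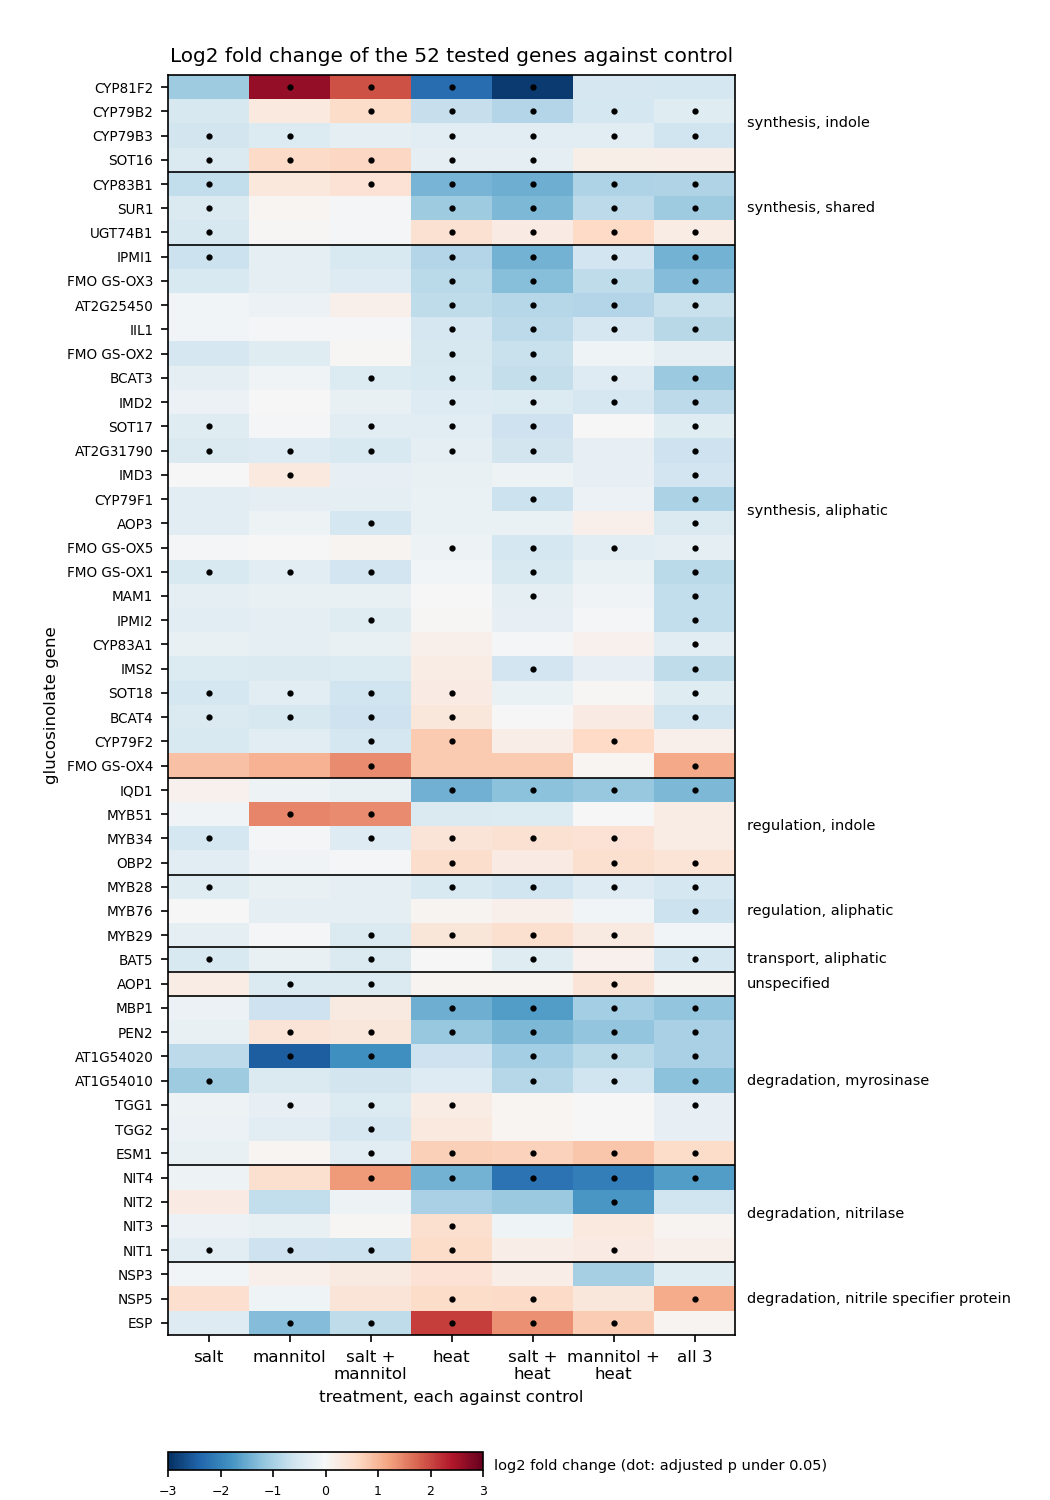
Log2 fold change against control (colour scale) for the 52 tested glucosinolate genes (rows, grouped by sub-class and ordered by the heat effect) under 7 treatments (columns), with a dot where the adjusted p was under 0.05. CYP81F2 was highest under mannitol at 2.64, ESP under heat at 2.06, and the column for all 3 stresses holds 33 called falls.

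Indole synthesis genes separated mannitol from salt. Mannitol raised CYP81F2, the P450 that hydroxylates the indole ring of indole glucosinolates, SOT16, which adds the sulfate to them, and the regulator MYB51. CYP81F2 was at 22.1, 25.7 and 31.0 TPM in mannitol rosettes, against 4.08, 3.56 and 5.09 TPM in control rosettes. The lowest mannitol library was more than 4 times the highest control library, and the log2 fold change was 2.64 ± 0.30 (adjusted p = 7.09e-06). SOT16 stood at 89.9, 106 and 122 TPM under mannitol, against 78.6, 70.2 and 64.6 TPM in controls, a change of 0.58 ± 0.12 (adjusted p = 0.000825). MYB51 stood at 18.2, 23.8 and 28.8 TPM, against 8.54, 7.78 and 9.57 TPM, a change of 1.46 ± 0.22 (adjusted p = 0.000118). In none of these 3 genes did the mannitol and control libraries overlap. The 1 indole gene that fell was CYP79B3 (-0.42 ± 0.12), a call that ended without control 2 (-0.38).

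Salt lowered genes of the same branch and of the shared core. CYP83B1, which oxidises the aldoxime made from tryptophan, was at 106, 85.0 and 87.8 TPM in salt rosettes, against 173, 161 and 129 TPM in controls, and changed by -0.74 ± 0.12 (adjusted p = 0.000589). UGT74B1, the glucosyltransferase of the core, was at 39.6, 37.5 and 38.9 TPM, against 52.8, 56.5 and 52.4 TPM, a change of -0.49 ± 0.08 (adjusted p = 0.000752). The groups did not overlap in either gene. SUR1, the C-S lyase, changed by -0.43 ± 0.09 (adjusted p = 0.00401) and CYP79B3, which makes indole-3-acetaldoxime from tryptophan, by -0.56 ± 0.12 (adjusted p = 0.00408). CYP81F2 was at 2.30, 1.41 and 2.38 TPM under salt, below every control library, with a change of -1.06 ± 0.35 that was not called. In all, 5 of the 7 indole and shared core genes fell under salt, where 6.41% of all genes fell (3 of them, SUR1, UGT74B1 and CYP83B1, belong to the shared core). The fifth, SOT16, was at 60.02, 46.5 and 51.9 TPM and changed by -0.44 ± 0.12 (adjusted p = 0.0172), a call that ended without control 1 (-0.36), salt 2 (-0.35) or salt 3 (-0.42).

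Set directly against mannitol, where both groups had been watered with a solution, salt rosettes were lower in 6 of the 7 indole and shared core genes, where 12.1% of all genes tested were lower and 10.1% higher. The log2 fold changes of salt over mannitol were -3.70 ± 0.33 (adjusted p = 6.13e-07) for CYP81F2, -1.06 ± 0.12 (adjusted p = 2.56e-06) for CYP83B1, -1.01 ± 0.12 (adjusted p = 2.56e-06) for SOT16 and -0.76 ± 0.16 (adjusted p = 0.00136) for CYP79B2, the second maker of indole-3-acetaldoxime. The salt and mannitol libraries did not overlap in these 4 genes, and all 6 calls held whichever library was left out. CYP79B3 alone of the 7 was not called, at -0.14 ± 0.12. Of the 22 tested aliphatic synthesis genes, 1 was called in this comparison: the sulfotransferase gene SOT17, lower at -0.32 ± 0.11, and the call ended without salt 2 (-0.24), salt 3 (-0.32), mannitol 1 (-0.33), mannitol 2 (-0.29) or mannitol 3 (-0.31). Over all 52 genes the comparison gave 5 higher and 10 lower in salt. AOP1, a dioxygenase of the AOP family, was higher by 0.65 ± 0.12 (adjusted p = 0.000248).

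**Figure D2:**
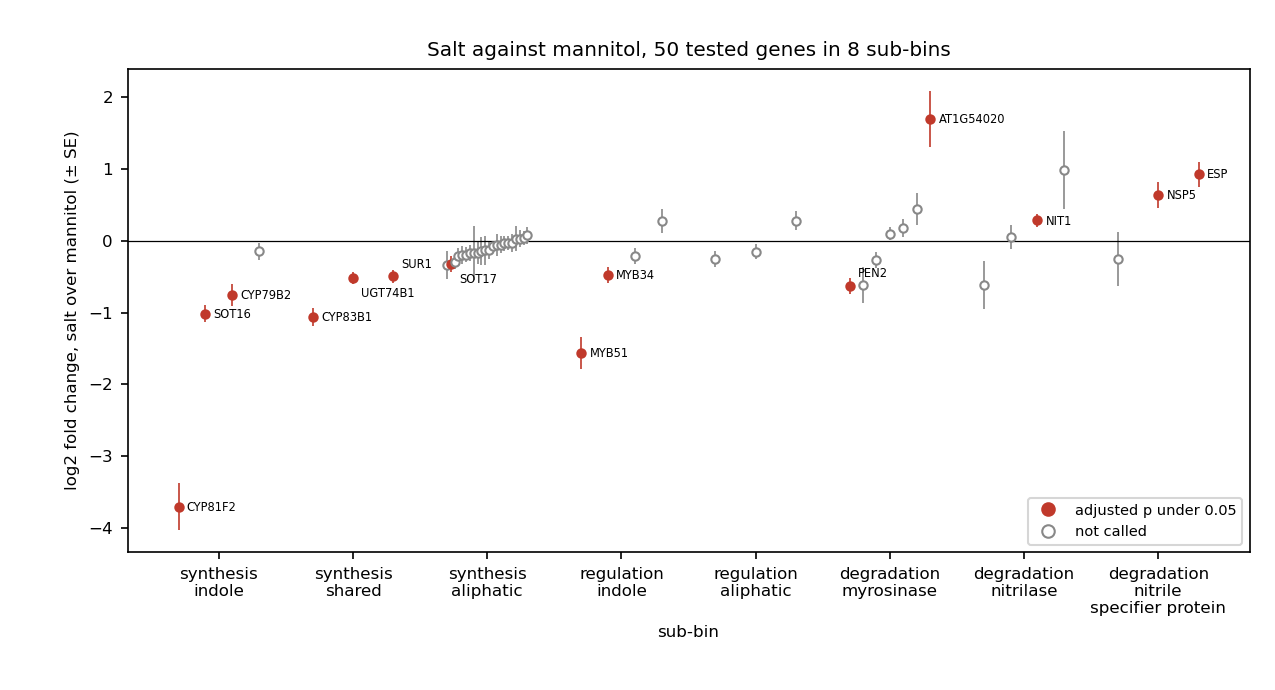
Log2 fold change of salt over mannitol with its SE (vertical axis) for 50 tested genes by sub-class (horizontal axis), filled red where the adjusted p was under 0.05. The points furthest below 0 are CYP81F2 at -3.70, MYB51 at -1.56 and CYP83B1 at -1.06, and 21 of the 22 aliphatic synthesis genes are open grey.

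CYP81F2, SOT16 and MYB51 also rose where salt and mannitol were given together. CYP81F2 was at 14.6, 16.9 and 16.8 TPM there and changed by 1.92 ± 0.30 (adjusted p = 0.000118) against control. SOT16 changed by 0.63 ± 0.12 (adjusted p = 0.000263) and MYB51 by 1.42 ± 0.22 (adjusted p = 0.000123). Of the 7 indole and shared core genes, 4 rose against control and 0 fell (all genes 15.4% and 17.2%), with 1 fall at an unadjusted p under 0.05 and 0 with DESeq2 or limma. The other 2 rises, 0.44 ± 0.12 (adjusted p = 0.0074) for CYP83B1 and 0.55 ± 0.15 (adjusted p = 0.00934) for CYP79B2, both ended without control 3, at 0.34 and 0.41. CYP83B1 was at 195, 221 and 216 TPM in salt plus mannitol rosettes. Its change there exceeded the sum of its salt and mannitol changes by 0.85 ± 0.17 (adjusted p = 0.00591), which held whichever library was left out. Salt and mannitol rosettes were each watered and controls have no recorded watering, so this departure cannot be told apart from an effect of watering.

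Heat lowered all 4 indole synthesis genes and 2 of the 3 shared ones, where 30.9% of all genes fell. CYP81F2 was at 0.705, 1.26 and 0.608 TPM in heated rosettes, against 4.08, 3.56 and 5.09 TPM in controls, a change of -2.27 ± 0.39 (adjusted p = 6.77e-05). CYP83B1 was at 64.7, 54.4 and 53.6 TPM, against 173, 161 and 129 TPM, a change of -1.40 ± 0.12 (adjusted p = 1.49e-09). SUR1 was at 55.2, 43.0 and 47.5 TPM, against 106, 105 and 98.8 TPM, a change of -1.07 ± 0.09 (adjusted p = 1.21e-09). Every heated library lay below every control in these 3 genes. UGT74B1 moved the other way, with 81.5, 68.5 and 68.2 TPM in heated rosettes, against 52.8, 56.5 and 52.4 TPM in controls, and rose by 0.45 ± 0.08 (adjusted p = 5.31e-05). It was the only 1 of the 7 to rise. The fall of SOT16 (-0.30 ± 0.12) ended without control 1 (-0.23), heat 2 (-0.28) or heat 3 (-0.24). That of CYP79B3 (-0.31 ± 0.12) ended without control 1 (-0.25), control 2 (-0.26), heat 2 (-0.23) or heat 3 (-0.26).

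The heat effect could be read 4 times in libraries that no other reading used: heat against control, salt plus heat against salt, mannitol plus heat against mannitol, and all 3 stresses against salt plus mannitol. These 4 comparisons still share 1 estimate of the spread, and in each the heated plants stood in another cabinet. Heat raised 11 and lowered 15 of the 52 genes in salted rosettes (all genes 30.6% and 28.5%), raised 19 and lowered 18 in mannitol-treated ones (30.9% and 30.2%) and raised 10 and lowered 24 in doubly treated ones (30.5% and 29.4%; 14 and 21 genes with library totals alone). Across the 4 comparisons, 12 of the 52 genes fell in all 4 and 8 rose in all 4, next to 18.2% and 20.8% of all genes tested. Within synthesis 9 of 29 fell and 2 rose in all 4, and within degradation 2 of 14 fell and 3 rose. The calls of 8 falls (CYP81F2, CYP83B1, SUR1, IIL1, AT2G25450, IQD1, PEN2 and NIT4) and 6 rises (UGT74B1, OBP2, MYB34, ESM1, NIT1 and ESP) held in all 4 whichever library was left out. CYP83B1 changed by -0.72 ± 0.12, -1.25 ± 0.12 and -1.33 ± 0.12 in salted, mannitol-treated and doubly treated rosettes, and SUR1 by -0.91 ± 0.09, -0.83 ± 0.09 and -1.02 ± 0.09. CYP81F2 changed by -1.81 ± 0.48, -3.13 ± 0.31 and -2.45 ± 0.31. The first of these moved to -3.05 without salt plus heat 3, the highest of 0.0859, 0.399 and 1.17 TPM, and was not called where only the salt and salt plus heat groups entered the fit (-1.82). Under heat, mannitol still raised CYP81F2: it stood at 2.53, 3.61 and 2.79 TPM in mannitol plus heat rosettes, against 0.705, 1.26 and 0.608 TPM in heated ones, a change of 1.78 ± 0.41 (adjusted p = 0.011). This comparison called 4 rises and 3 falls among the 52 genes, against 6% and 6.32% of all genes, and 7 and 2 with library totals alone. All 4 rises were indole or shared core genes. The count fell to 2 without heat 2 and to 4 without mannitol plus heat 2.

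**Figure D3:**
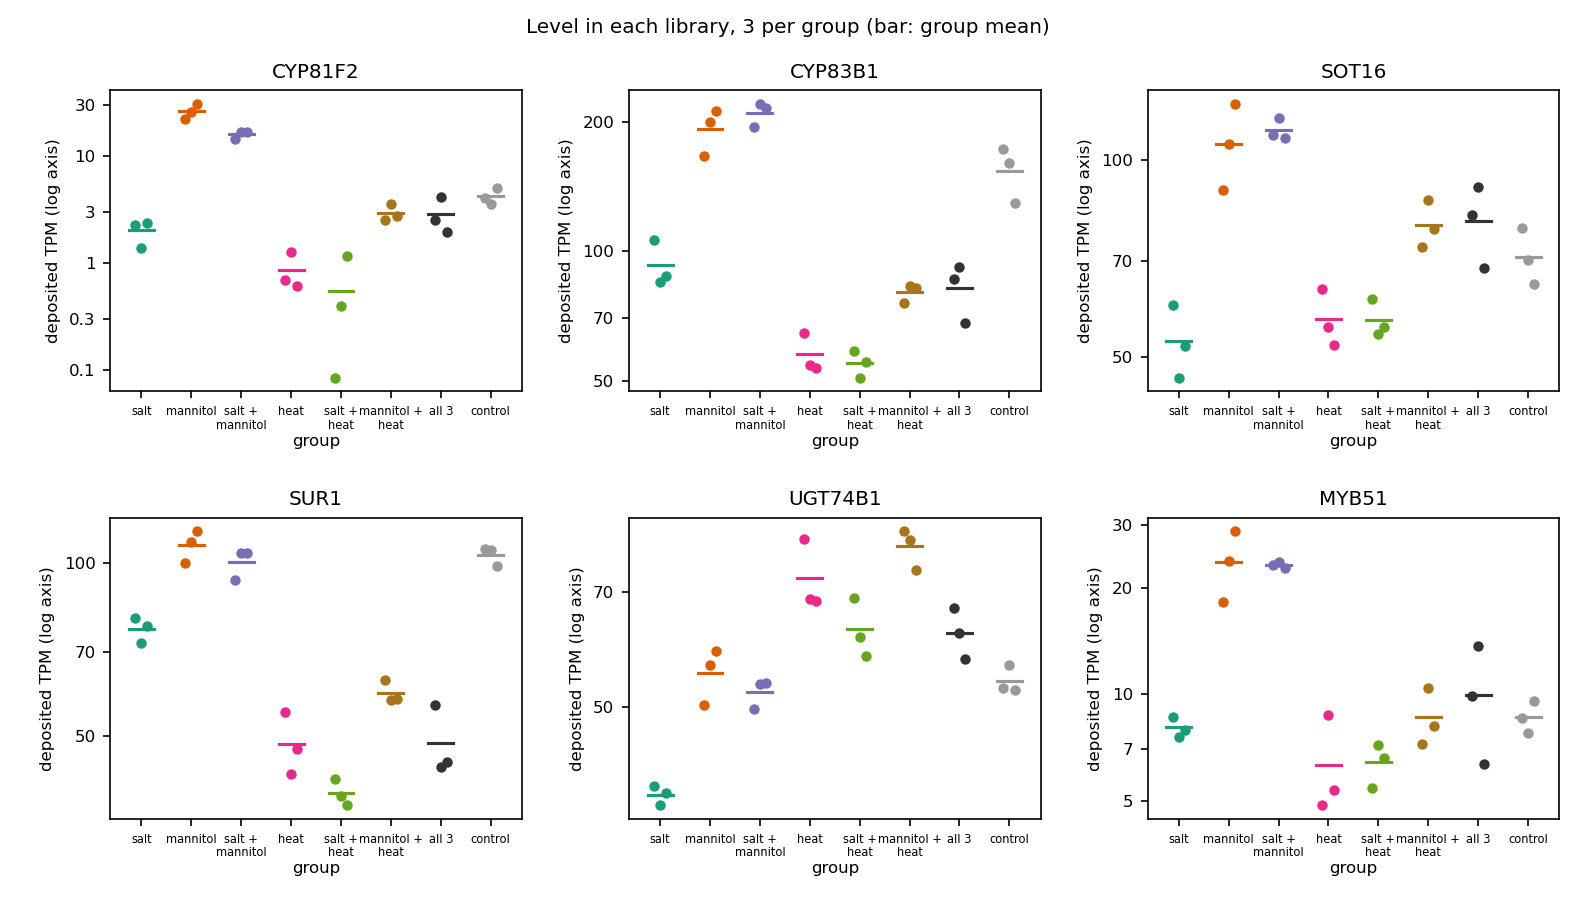
Deposited TPM (log axis) in each of 3 libraries per group for 5 indole or shared synthesis genes and the regulator MYB51, with bars at the group means. CYP81F2, SOT16 and MYB51 are highest in the mannitol and salt plus mannitol groups, and CYP83B1 and SUR1 are lower in all 4 heated groups than in control.

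The promoters of the 4 indole synthesis genes, and of UGT74B1 as the 1 shared gene with a match, are shown because MYB factors regulate this branch. In the 250 bases before the RefSeq gene start (build TAIR10.1), ACCAAC, the core of the AC element bound by MYB factors, was searched on both strands along with CACGTG (G-box), GAANNTTC (heat shock element core) and GAGAC (sulfur response element core). No overlap between the motifs was removed. ACCAAC was present in 11.5% of 27438 protein-coding genes, in 10 of 31 synthesis genes (32.3%), in 1 of 16 degradation genes (6.25%) and in 0 of 7 regulators. It was present in 3 of the 4 indole synthesis genes and in 1 of the 3 shared ones, with no match in SUR1 or CYP83B1, and in 6 of the 23 aliphatic ones (26.1%). CACGTG was present in 5 of the 56 genes (6.49% of all genes), GAANNTTC in 3 (9.55% of all) and GAGAC in 13 (25.8% of all). A match describes the letters in the window and does not establish a site. Capitals mark ACCAAC or its reverse complement GTTGGT. The windows are written 5′ to 3′ along the gene's own strand, and lie at chr1:27865695-27865944 (minus strand) for SOT16, chr4:18524792-18525041 (plus) for CYP79B2, chr2:9488163-9488412 (plus) for CYP79B3, chr1:8527088-8527337 (minus) for UGT74B1 and chr5:23187590-23187839 (plus) for CYP81F2, with no other annotated gene in any of them.
SOT16: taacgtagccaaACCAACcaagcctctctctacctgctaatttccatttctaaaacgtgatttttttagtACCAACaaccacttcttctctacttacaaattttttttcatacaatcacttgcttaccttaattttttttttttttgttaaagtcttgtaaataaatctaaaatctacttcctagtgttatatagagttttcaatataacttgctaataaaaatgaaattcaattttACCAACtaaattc
CYP79B2: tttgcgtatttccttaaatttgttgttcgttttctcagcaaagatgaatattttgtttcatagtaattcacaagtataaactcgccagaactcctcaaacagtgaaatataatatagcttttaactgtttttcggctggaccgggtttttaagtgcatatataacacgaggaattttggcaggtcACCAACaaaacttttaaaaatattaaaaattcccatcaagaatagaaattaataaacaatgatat
CYP79B3: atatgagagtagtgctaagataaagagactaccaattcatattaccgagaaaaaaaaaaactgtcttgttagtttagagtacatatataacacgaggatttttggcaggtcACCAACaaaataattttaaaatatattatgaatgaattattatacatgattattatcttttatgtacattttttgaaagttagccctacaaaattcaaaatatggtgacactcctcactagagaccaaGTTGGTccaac
UGT74B1: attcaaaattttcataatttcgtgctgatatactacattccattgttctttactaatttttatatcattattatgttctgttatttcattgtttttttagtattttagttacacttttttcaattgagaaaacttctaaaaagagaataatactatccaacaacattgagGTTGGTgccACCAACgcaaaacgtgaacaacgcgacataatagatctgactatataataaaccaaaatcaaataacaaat
CYP81F2: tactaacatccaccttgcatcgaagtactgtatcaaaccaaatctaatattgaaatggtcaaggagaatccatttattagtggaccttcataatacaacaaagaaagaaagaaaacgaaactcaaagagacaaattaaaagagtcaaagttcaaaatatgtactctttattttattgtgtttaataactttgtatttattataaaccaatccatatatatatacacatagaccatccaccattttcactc
SOT16 holds 3 matches, and UGT74B1 holds 2 close together on opposite strands. CYP79B3 also holds 2 on opposite strands, and only the upstream one lies in the shared run given next. The closely related genes CYP79B2 and CYP79B3 share a run of 22 bases, ttttggcaggtcACCAACaaaa, around their match. The window of CYP81F2, the gene that changed most under mannitol, holds no match.

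Aliphatic synthesis genes had their highest count of falls under all 3 stresses together, with no test of the difference between treatments. Of 22 tested, salt lowered 6, mannitol lowered 4 and raised 1, salt plus mannitol lowered 9 and raised 1, heat lowered 10 and raised 3, salt plus heat lowered 14, mannitol plus heat lowered 7 and raised 1, and all 3 stresses lowered 19 and raised 1. The falls came to 27.3%, 18.2%, 40.9%, 45.5%, 63.6%, 31.8% and 86.4% of the 22 in that order, where 6.41%, 11.4%, 17.2%, 30.9%, 31.5%, 32% and 32.7% of all genes fell, so the share under mannitol plus heat was close to that of all genes. With library totals alone the falls numbered 3, 1, 6, 6, 13, 6 and 14 in the same order, and the rises 0, 2, 2, 3, 0, 3 and 1. The counts of 0 rises under salt and salt plus heat were 1 and 0 at an unadjusted p under 0.05, and 0 with DESeq2 and limma. The single rise under all 3 stresses, of the S-oxygenase gene FMO GS-OX4 (1.14 ± 0.39), ended without control 3 (1.08) or all 3 stresses 3 (1.03). Whichever library was left out, 1 fall held under salt (SOT18), 1 under mannitol (BCAT4), 6 under both, 6 under heat, 12 under salt plus heat, 6 under mannitol plus heat and all 19 under all 3 stresses.

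Side chain elongation genes include enzymes that fell under all 3 stresses. IPMI1, a small subunit of the isomerase in this cycle, was at 55.5, 30.4 and 34.7 TPM under all 3 stresses and 74.8, 45.9 and 52.7 TPM under heat, against 106, 118 and 100.2 TPM in controls. The changes were -1.42 ± 0.20 (adjusted p = 4.14e-06) and -0.89 ± 0.19 (adjusted p = 0.000559), and no treated library reached a control. BCAT3, an aminotransferase of the same cycle, was at 52.8, 44.8 and 43.7 TPM under all 3 stresses, against 98.6, 108 and 101 TPM in controls, and changed by -1.11 ± 0.11 (adjusted p = 1.18e-08). MAM1, a methylthioalkylmalate synthase of this cycle, was at 175, 124 and 129 TPM under all 3 stresses, against 243, 249.8 and 228 TPM in controls, and changed by -0.74 ± 0.10 (adjusted p = 1.79e-06). Under heat alone MAM1 was at 271, 223 and 229 TPM and its change of 0.02 ± 0.10 was not called. IIL1, the large subunit of the isomerase, fell with heat in all 4 comparisons without shared libraries, by -0.49 ± 0.10, -0.68 ± 0.10, -0.44 ± 0.10 and -0.76 ± 0.10. BCAT4, the aminotransferase that opens the cycle, changed by -0.44 ± 0.11 under salt, -0.47 ± 0.11 under mannitol, -0.62 ± 0.11 under both and -0.60 ± 0.12 under all 3 stresses. Its salt call ended without control 1 (-0.40), control 2 (-0.42), salt 1 (-0.43) or salt 3 (-0.44). Under heat BCAT4 was at 368, 291 and 288 TPM, a rise of 0.34 ± 0.11 that ended without control 3 (0.28) or heat 1 (0.22).

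Core and side chain genes of the aliphatic branch were called in both directions across treatments. CYP79F1 and CYP79F2 turn elongated methionine into aldoximes. CYP79F1, the abundant one, was at 133, 77.2 and 88.0 TPM under all 3 stresses, against 199, 203 and 179 TPM in controls, and changed by -0.95 ± 0.15 (adjusted p = 1.41e-05). CYP79F2 was at 12.9, 10.2 and 9.28 TPM under heat, against 6.18, 6.48 and 6.44 TPM in controls, and changed by 0.78 ± 0.18 (adjusted p = 0.000816). The heated libraries of CYP79F2 all lay above the controls, opposite to most called genes of the branch. The values of CYP79F1 and CYP79F2 are for different treatments, and CYP79F2 was not called as a rise under all 3 stresses. CYP83A1, the next enzyme, changed by -0.34 ± 0.10 (adjusted p = 0.00401) under all 3 stresses and by 0.14 ± 0.10 under heat, which was not called. FMO GS-OX3, which oxidises the sulfur of the side chain, was at 31.3, 19.3 and 22.2 TPM under all 3 stresses, 43.1, 28.4 and 31.8 TPM under heat and 57.1, 67.6 and 57.9 TPM in controls. Its changes were -1.31 ± 0.16 (adjusted p = 4.06e-07) under all 3 and -0.80 ± 0.16 (adjusted p = 0.00014) under heat, with every treated library below every control.

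Of the later steps, AT2G25450 was at 199, 191 and 162 TPM under heat, against 336, 337 and 271 TPM in controls, changed by -0.76 ± 0.12 (adjusted p = 7.84e-06) and fell in all 4 heat comparisons without shared libraries. The sulfotransferases SOT17 and SOT18, which finish aliphatic glucosinolates, changed by -0.37 ± 0.11 (adjusted p = 0.00716) and -0.37 ± 0.10 (adjusted p = 0.00372) under all 3 stresses, and neither these calls (-0.19 and -0.19) nor that of CYP83A1 (-0.17) held with library totals alone. SOT18 was at 52.8, 45.2 and 47.2 TPM under salt, against 65.9, 74.1 and 69.5 TPM in controls, and changed by -0.54 ± 0.11 (adjusted p = 0.00225). The libraries heat 1, mannitol plus heat 1 and all 3 stresses 1 were the highest of their groups in summed aliphatic synthesis level, and they are included in these values.

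Regulators were called in both directions under heat. MYB34 and MYB51 act on the indole branch, as do the DOF factor OBP2 and the calmodulin-binding protein IQD1, while MYB28, MYB29 and MYB76 act on the aliphatic branch. Heat raised 3 of the 7 tested regulators (OBP2, MYB29 and MYB34) and lowered 2 (MYB28 and IQD1), where 31.7% of all genes rose and 30.9% fell. MYB34 was at 35.1, 29.8 and 31.4 TPM in heated rosettes, against 22.8, 26.4 and 25.6 TPM in controls, and changed by 0.38 ± 0.11 (adjusted p = 0.00514). MYB28 was at 63.2, 45.9 and 57.6 TPM, against 72.0, 83.6 and 77.4 TPM, and changed by -0.47 ± 0.11 (adjusted p = 0.000786). IQD1 was at 2.15, 1.05 and 1.61 TPM, against 4.73, 4.82 and 3.70 TPM, and changed by -1.45 ± 0.19 (adjusted p = 7.42e-07). The heated libraries overlapped controls in none of these 3 genes. MYB34 rose with heat in each of the 4 comparisons without shared libraries, by 0.97 ± 0.12, 0.49 ± 0.11 and 0.60 ± 0.11 beside the first. CYP81F2 and CYP79B2 of the 4 indole synthesis genes fell in all 4 comparisons, and SOT16 and CYP79B3 did not. Of the shared core, CYP83B1 and SUR1 fell in all 4 and UGT74B1 rose in all 4. In salted rosettes the CYP79B2 call (-0.41 ± 0.16) ended without salt 1 (-0.34), salt plus heat 2 (-0.32) or salt plus heat 3 (-0.39). MYB51 fell with heat where mannitol had been given, by -1.45 ± 0.23 in mannitol-treated and -1.19 ± 0.22 in doubly treated rosettes. In plants without mannitol it changed by -0.43 ± 0.24 against control and -0.29 ± 0.25 against salt, neither called. MYB76 fell under all 3 stresses (-0.64 ± 0.14 (adjusted p = 0.000261)). 

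The transporter gene BAT5 and the dioxygenase gene AOP1 were called in some comparisons. BAT5, which carries keto acids of the methionine cycle across the plastid envelope, was at 48.6, 34.8 and 39.3 TPM under all 3 stresses, against 55.8, 65.6 and 58.3 TPM in controls, and changed by -0.54 ± 0.14 (adjusted p = 0.00157). Its salt call (-0.46 ± 0.14) ended without control 2 (-0.38), control 3 (-0.47), salt 2 (-0.42) or salt 3 (-0.44). AOP1 was at 7.27, 6.18 and 6.70 TPM in mannitol rosettes and 13.3, 11.7 and 10.3 TPM in mannitol plus heat rosettes, against 9.03, 9.73 and 8.59 TPM in controls. Mannitol lowered it by a log2 change of -0.44 ± 0.12 (adjusted p = 0.00745), while mannitol plus heat exceeded the sum of the single effects by 0.74 ± 0.16 (adjusted p = 0.00684).

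Among degradation genes heat raised 6 and lowered 3 of the 14 tested (42.9% and 21.4%, against 31.7% and 30.9% of all genes), whereas salt plus heat, mannitol plus heat and all 3 stresses raised 3, 3 and 2 and lowered 5, 6 and 6, where 31.7%, 32.6% and 33% of all genes rose and 31.5%, 32% and 32.7% fell. With library totals alone these rises and falls were 7 and 3, 4 and 5, 5 and 4, and 3 and 5. ESP, the epithiospecifier protein that directs hydrolysis toward nitriles, showed the largest rise of any glucosinolate gene under heat. It was at 263, 199 and 220.2 TPM in heated rosettes, against 46.1, 62.2 and 56.8 TPM in controls, a change of 2.06 ± 0.17 (adjusted p = 3.12e-09), and the groups did not overlap. With salt added to heat it was at 133, 154 and 133 TPM (1.37 ± 0.17 (adjusted p = 7.6e-07) against control), and with mannitol added at 100.4, 92.5 and 82.9 TPM (0.76 ± 0.17 (adjusted p = 0.000641)). Under all 3 stresses it was at 62.5, 38.1 and 72.5 TPM, overlapping controls, and the change of 0.08 ± 0.17 was not called. Mannitol lowered ESP with and without heat: unheated mannitol rosettes had 22.8, 24.2 and 19.9 TPM and changed by -1.30 ± 0.18 (adjusted p = 2.41e-05) against control, and mannitol plus heat changed by -1.31 ± 0.17 (adjusted p = 0.000137) against heat. Salt plus heat was lower than heat at -0.69 ± 0.17 (adjusted p = 0.0498), but this call ended without heat 1 (-0.57), heat 2 (-0.78), heat 3 (-0.71), salt plus heat 1 (-0.66), salt plus heat 2 (-0.76) or salt plus heat 3 (-0.65). That comparison called 5 of the 52 genes, all lower, where 0.664% of all genes were lower and 0.365% higher, and each of the 5 calls was lost without at least 1 library. The count was 1 without heat 1, 1 without heat 2, 2 without heat 3, 0 without salt plus heat 1 or salt plus heat 2, and 3 without salt plus heat 3.

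ESM1 and NIT1 rose with heat and were already among the most abundant. ESM1 was at 2068, 1671 and 2122 TPM in heated rosettes, against 1197, 1215 and 1212 TPM in controls, a change of 0.71 ± 0.11 (adjusted p = 1.08e-05). NIT1, which turns nitriles into acids, was at 1633, 1644 and 1573 TPM, against 1087, 1148 and 1105 TPM, a change of 0.56 ± 0.09 (adjusted p = 1.13e-05). Every heated library exceeded every control in both genes. NIT1 was lower in mannitol rosettes, at 661, 766 and 753 TPM, a change of -0.61 ± 0.09 (adjusted p = 3.16e-05). NSP5, a nitrile specifier, was highest under all 3 stresses, at 111, 97.9 and 105 TPM, against 55.8, 48.4 and 42.3 TPM in controls, a change of 1.11 ± 0.18 (adjusted p = 2.95e-05).

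PEN2 and NIT4 went the opposite way to ESP. PEN2, an atypical myrosinase that acts on indole glucosinolates in pathogen defence, was at 40.2, 48.2 and 42.4 TPM in heated rosettes, against 90.5, 101 and 98.6 TPM in controls, a change of -1.13 ± 0.11 (adjusted p = 7.72e-09). It fell in all 4 heat comparisons without shared libraries, by as much as -1.58 ± 0.11 in mannitol-treated rosettes. Mannitol without heat took PEN2 to 115, 118 and 148 TPM, a rise of 0.40 ± 0.11 (adjusted p = 0.00965) that ended without mannitol 3 (0.28). NIT4, a nitrilase with cyanoalanine as substrate, was at 20.2, 16.0 and 15.1 TPM in salt plus mannitol rosettes, 2.16, 3.68 and 2.03 TPM in heated rosettes and 8.84, 6.97 and 5.32 TPM in controls. It changed by 1.27 ± 0.33 (adjusted p = 0.00651) and -1.41 ± 0.38 (adjusted p = 0.00343) against control, and neither group overlapped the controls. MBP1, a myrosinase-binding protein, was at 93.0, 59.0 and 63.2 TPM in heated rosettes, against 198, 254 and 146 TPM in controls, and changed by -1.46 ± 0.23 (adjusted p = 2e-05).

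The other nitrilases were far less abundant than NIT1. NIT2 varied widely within groups, with 28.0, 36.3 and 16.1 TPM under heat, 19.1, 20.4 and 7.57 TPM under mannitol plus heat and 83.1, 49.1 and 27.1 TPM in controls. Its mannitol plus heat change (-1.76 ± 0.57) ended without control 1 (-1.28) or mannitol plus heat 3 (-1.42). NIT3 was at 8.96, 8.66 and 8.92 TPM under heat, against 6.93, 7.38 and 4.998 TPM in controls, and its rise of 0.47 ± 0.16 ended without control 3 (0.32).

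The classical myrosinases gave smaller changes. TGG1 was at 1170.2, 1211 and 1232 TPM in salt plus mannitol rosettes and 1997, 1764 and 1788 TPM in heated rosettes, against 1458, 1657 and 1694 TPM in controls. The first change was -0.42 ± 0.09 (adjusted p = 0.00119). The heat change of 0.22 ± 0.09 was called, but the call ended without control 1 (0.16), control 2 (0.25) or heat 1 (0.17). TGG2 changed by -0.50 ± 0.13 (adjusted p = 0.00464) under salt plus mannitol. AT1G54020, described in the deposited table as a putative myrosinase-associated protein, was at 0.667, 0.820 and 0.547 TPM in mannitol rosettes, against 5.33, 3.86 and 2.07 TPM in controls, a change of -2.47 ± 0.37 (adjusted p = 6.41e-05). It is a low gene, and its control libraries differ among themselves by more than 2-fold. Its neighbour AT1G54010, with the same description, was at 12.2, 15.9 and 10.7 TPM under all 3 stresses, against 39.9, 28.9 and 22.8 TPM in controls, and changed by -1.22 ± 0.25 (adjusted p = 0.00034).

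**Figure D4:**
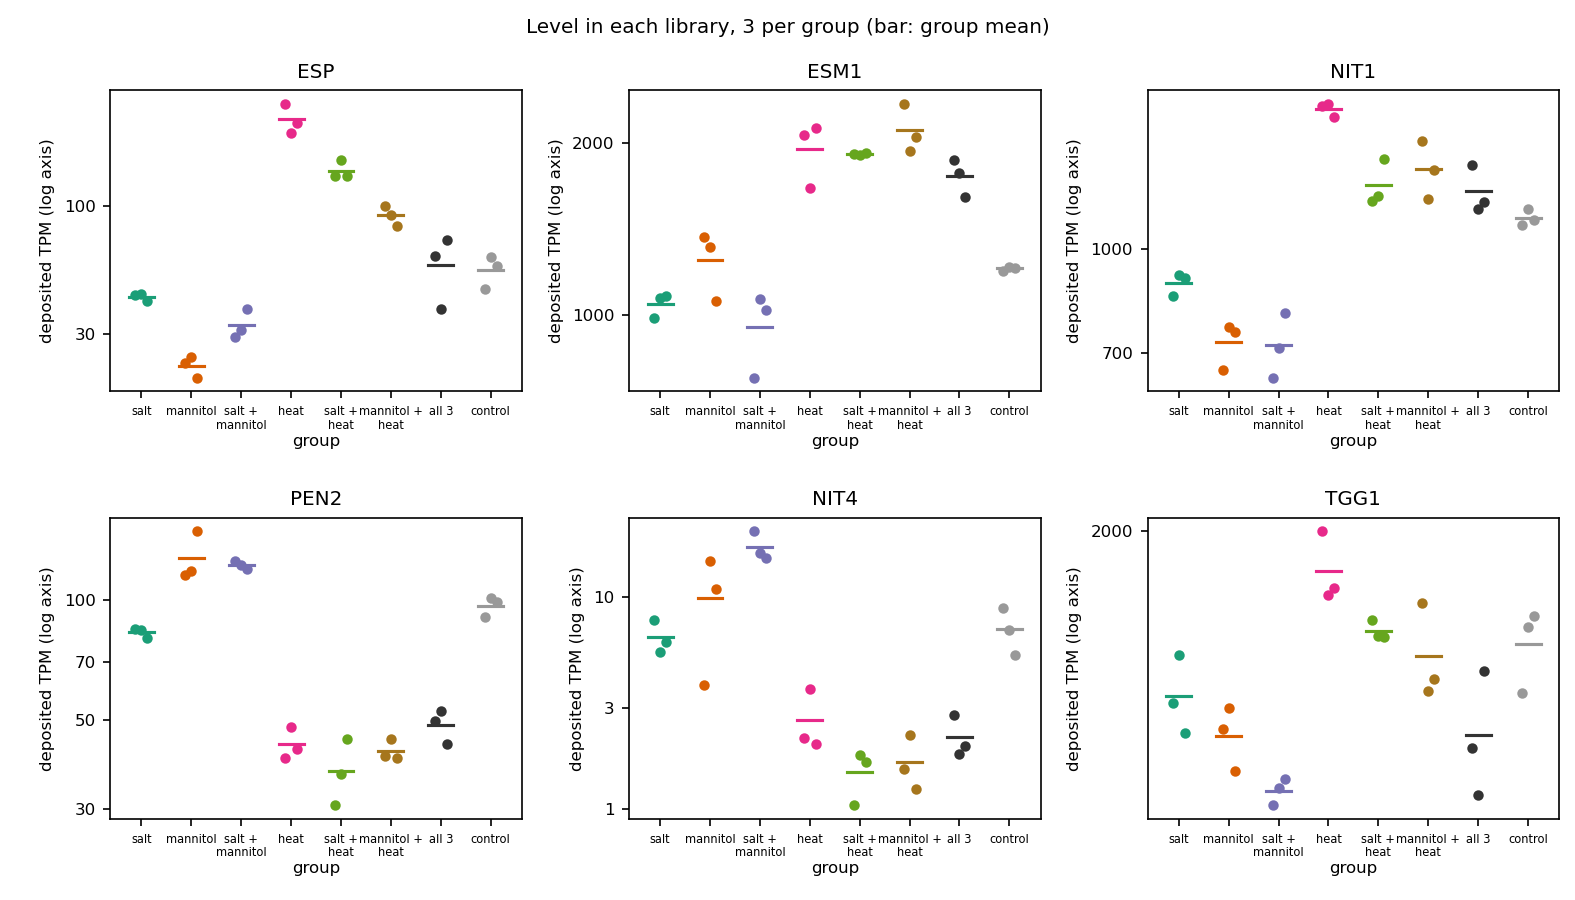
Deposited TPM (log axis) in each of 3 libraries per group for 6 degradation genes, with bars at the group means. The means of ESM1 and NIT1 are highest and those of PEN2 and NIT4 lowest in the 4 heated groups, while ESP is highest under heat, lower with salt or mannitol added, and overlaps control under all 3 stresses.

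Summed levels set synthesis against degradation. The synthesis genes summed to 1934, 1536 and 1504 TPM in the 3 libraries with all 3 stresses and 2515, 2011 and 2043 TPM under heat, against 2694, 2747 and 2439 TPM in controls. The degradation genes summed to 5379, 4863 and 5254 TPM under all 3 stresses and 7093, 6216 and 6566 TPM under heat, against 4832, 5213 and 5033 TPM in controls. The ratio of summed synthesis to summed degradation TPM was 0.311 to 0.355 under heat, 0.302 to 0.320 under salt plus heat, 0.361 to 0.388 under mannitol plus heat and 0.286 to 0.360 under all 3 stresses. It was 0.443 to 0.517 under salt, 0.545 to 0.615 under mannitol, 0.629 to 0.634 under both and 0.485 to 0.557 in controls. All 12 heated libraries lay below all 12 unheated ones, and the ratio is unaffected by how TPM was scaled. In degradation, 83.7% to 94.8% of the summed TPM came from TGG1, TGG2, ESM1 and NIT1. The degradation side of the ratio therefore rests mainly on these 4 genes. Under all 3 stresses the degradation sums overlapped those of controls, while every synthesis sum lay below every control. No test is given for a sum over chosen genes.

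By counts, heat lowered 16 of 29 synthesis genes and raised 4, and lowered 3 of 14 degradation genes and raised 6, where 30.9% of all genes fell and 31.7% rose. As shares, 55.2% of synthesis and 21.4% of degradation genes fell and 13.8% and 42.9% rose, and the difference between the classes was not tested. The synthesis count dropped to 13 without heat 3. Median log2 fold changes were -0.29 for synthesis and 0.26 for degradation under heat, and -0.43 and -0.17 under salt. Under mannitol, 5 synthesis genes fell and 3 rose (5 rose and 1 fell with library totals alone), and 4 degradation genes fell and 1 rose, beside 11.4% and 12.2% of all genes. The synthesis count for mannitol fell to 3 without control 2 and to 5 without control 3 or mannitol 3. Under all 3 stresses 23 synthesis genes fell and 2 rose, and 6 degradation genes fell and 2 rose (42.9% and 14.3% of 14), beside 32.7% and 33% of all genes. Among the heated groups, degradation rises outnumbered falls under heat alone and not where salt, mannitol or both were added, as counted above. With library totals alone, rises also outnumbered falls under mannitol plus heat.

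**Figure D5:**
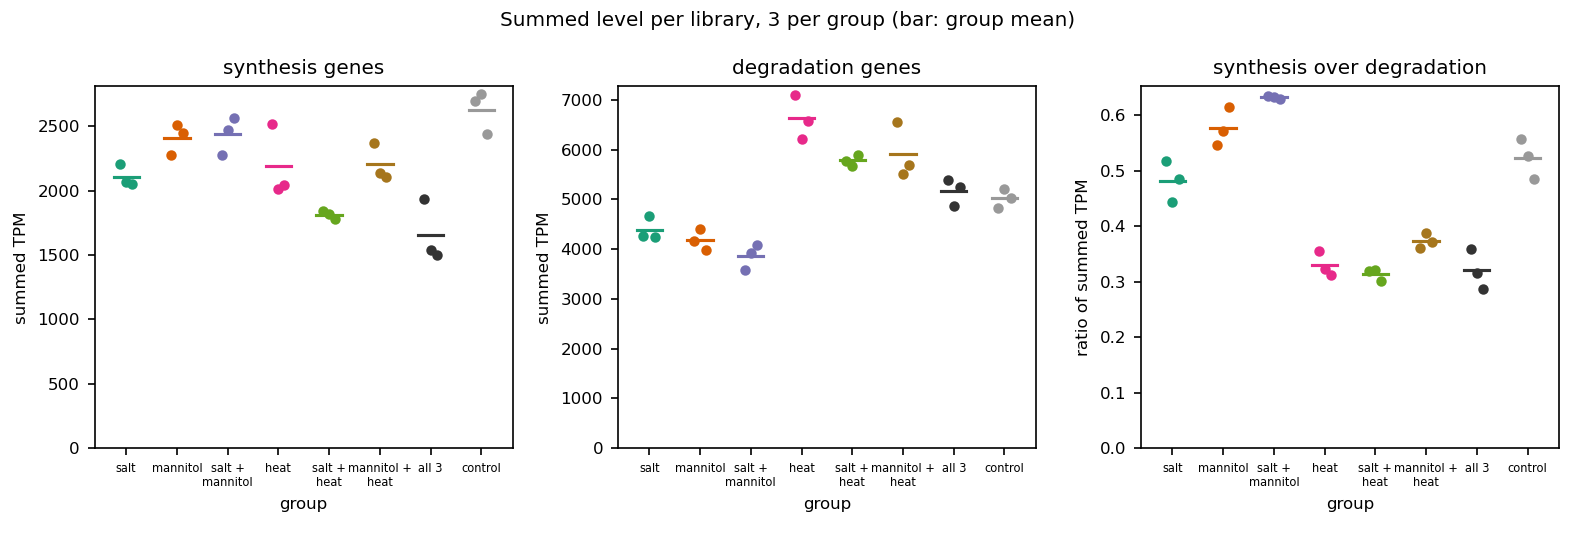
Summed deposited TPM of the synthesis genes, of the degradation genes, and their ratio (vertical axes, each from 0) in each of 3 libraries per group, with bars at the group means. The ratio is at most 0.388 in heated libraries and at least 0.443 in unheated ones.

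Departures from the sum of single effects were tested for each combination. Salt plus mannitol gave 5 positive and 1 negative among the 52 genes (all genes 2.84% and 3.76%), salt plus heat 1 and 0 (0.859% and 0.544%), mannitol plus heat 3 and 0 (3.59% and 5.19%) and all 3 stresses 2 and 0 (4.12% and 5.1%). DESeq2 called more, 10, 2, 6 and 5 in the same order, against 6, 1, 3 and 2. The counts of 0 were 1, 5 and 1 at an unadjusted p under 0.05, 0, 3 and 1 with DESeq2 and 0, 1 and 0 with limma. Whichever library was left out, only CYP83B1 in salt plus mannitol and AOP1 and AT1G54020 in mannitol plus heat kept their calls. The salt plus mannitol count of 6 was 1 without control 2, salt 3 or salt plus mannitol 3, and 3 without salt 2, mannitol 1, mannitol 2, salt plus mannitol 1 or salt plus mannitol 2. The mannitol plus heat count of 3 was 6 without mannitol 1 and 12 without heat 1, the count of 2 for all 3 stresses was 0 without control 1 and 1 without control 2, and the single salt plus heat call was lost without control 2, control 3, salt 2, salt 3, heat 2, heat 3, salt plus heat 1 or salt plus heat 2, while 3 were called without heat 1.

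Genes of the pathway that the deposited class does not hold were counted in lists of its steps, read against the background shares given above for each comparison. The sulfate activation list holds 9 genes, among them the adenylylsulfate reductases APR1, APR2 and APR3, which do not make the sulfate donor. Heat lowered all 9 (8 whichever library was left out, APS1 being the other), where 30.9% of all genes fell. Salt lowered 5 (3 held), where 6.41% of all genes fell. SAL1, a phosphatase that removes the by-product of sulfation, changed by -1.24 ± 0.10 (adjusted p = 7.14e-10) under heat and -0.47 ± 0.10 (adjusted p = 0.00454) under salt. AKN2, an adenylylsulfate kinase, changed by -0.54 ± 0.13 (adjusted p = 0.000899) and -0.68 ± 0.13 (adjusted p = 0.0018). Mannitol raised 2 of the 9 (12.2% of all genes), of which APR2, an adenylylsulfate reductase, held at 0.53 ± 0.12 (adjusted p = 0.00214).

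Of the 6 ring modification genes tested, which include methyltransferases acting on the product of CYP81F2, mannitol raised 2 and lowered 2 (all genes 12.2% and 11.4%). IGMT1 and IGMT2, close copies of each other, rose with mannitol by 2.20 ± 0.28 (adjusted p = 2.43e-05) and 2.36 ± 0.20 (adjusted p = 3.05e-07), and changed by -1.32 ± 0.33 (adjusted p = 0.00229) and -2.45 ± 0.25 (adjusted p = 9.24e-08) under heat. The 2 that fell with mannitol were CYP81F4, a relative of CYP81F2, at -0.91 ± 0.21 (adjusted p = 0.00455), and the methyltransferase gene IGMT5 at -0.52 ± 0.16, a call that ended without control 1 (-0.45), control 2 (-0.49) or mannitol 1 (-0.40). Heat lowered 4 of the 6 (30.9% of all genes), with CYP81F3, another relative, at -2.31 ± 0.20 (adjusted p = 9.3e-10). Salt lowered 4 (6.41% of all genes), of which 2 held. Of 4 genes listed for camalexin and related indole products, which share the aldoxime made by CYP79B2 and CYP79B3, mannitol raised 3 (12.2% of all genes). The fourth, CYP82C2, is not itself a gene of camalexin synthesis and was not called. PAD3 rose by 2.07 ± 0.47 (adjusted p = 0.00428) and CYP71A12 by 2.27 ± 0.34 (adjusted p = 0.000147), and the third, CYP71A13 (1.71 ± 0.53), lost its call without control 2 (1.64), control 3 (1.48), mannitol 2 (1.39) or mannitol 3 (1.56).

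Heat lowered 3 of 3 glutathione transferases listed for the indole core (30.9% of all genes), with GSTU13 at -1.28 ± 0.10 (adjusted p = 1.4e-10), and 2 of these calls held whichever library was left out. The call of GSTF10 (-0.49 ± 0.17) ended without control 1 (-0.40) or heat 3 (-0.38). All 3 stresses lowered 3 of 3 further genes of the aliphatic and shared core (32.7% of all genes): GSTU20 changed by -1.73 ± 0.13 (adjusted p = 1.87e-10), GSTF11 by -1.02 ± 0.18 (adjusted p = 4.13e-05) and the peptidase GGP1 by -0.55 ± 0.09 (adjusted p = 9.5e-06). The elongation dehydrogenase IMD1 changed by -0.84 ± 0.15 (adjusted p = 6.92e-05) under heat and -1.68 ± 0.16 (adjusted p = 7.6e-09) under all 3 stresses. Of 3 glucosinolate transporters heat lowered 3 (30.9% of all genes), with GTR2 at -0.61 ± 0.09 (adjusted p = 5.81e-06) and NRT1.9 at -0.45 ± 0.12 (adjusted p = 0.00244). The call of GTR1 (-0.23 ± 0.09) ended without control 1 (-0.21), control 2 (-0.19), heat 1 (-0.19) or heat 2 (-0.24). Of 7 further regulators, salt lowered 1 (6.41% of all genes), the jasmonate regulator MYC2 (-0.87 ± 0.10 (adjusted p = 3.03e-05)). Heat lowered 4 (30.9% of all genes), among them EIL3, a regulator of sulfur deficiency responses (-0.64 ± 0.09 (adjusted p = 2.59e-06)). Mannitol plus heat raised 3 and lowered 1 of the 7 (all genes 32.6% and 32%), as did all 3 stresses (33% and 32.7%). In both, the rises were of MYC2, MYC4 and AT1G04770 and the fall of EIL3, and all held whichever library was left out. Of 3 other thioglucosidases heat lowered 1, BGLU22 (-1.49 ± 0.28 (adjusted p = 9.25e-05)). Of 4 other specifier and myrosinase partner genes it lowered 1, MBP2, a myrosinase-binding protein (-1.15 ± 0.26 (adjusted p = 0.000945)). These last 2 counts lie near the 30.9% of all genes that heat lowered.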

How the data were processed

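RNA-seq of whole rosettes covered 8 groups of 3 libraries. The deposited table holds estimated counts, which are raw counts per the file headers, and a second set of columns that the file headers call normalized transcript values (TPM). The submitters' processing notes name CASAVA, kallisto 0.45.1 and sleuth 0.30.0, and the file headers name the Araport 11 annotation. The genome build is not given in the sources used here. The deposited estimated counts carried a constant factor per library (0.797 to 1.25), found from values that were whole multiples of it to within 0.01 (94.7% to 95.2% of values). It was divided out and the values were rounded to whole numbers, giving 12.5 to 19.5 M reads per library. The deposited TPM signal sums to 0.920 M to 1.12 M per library, so the authors rescaled it. It was used for levels and for the limma alternative, and not in the main test.

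All 24 libraries entered 1 edgeR 4.0.16 quasi-likelihood fit in R 4.3.3 (TMM scaling, edgeR's default filter on low counts, robust spread estimate), with 17 comparisons, each adjusted by Benjamini-Hochberg over 20027 genes. SE is the log2 fold change divided by the square root of its F. The scripts were tested on simulated data. Alternatives were 2 other scalings, DESeq2 1.42.0, limma 3.58.1 on log2(TPM + 1), no filter, the replicate number as a block, the groups of a comparison alone, the counts as deposited, and leaving out each library. No library was a copy of another: chi-square values between replicates were 3.31 to 25.0 times their degrees of freedom. With 3 libraries per group and these depths, small changes of low genes could not be resolved.

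The genes and lists were chosen with earlier results of these data known. Values per library were given for the most abundant genes of each sub-class and for the largest called changes. The remaining genes named were chosen after their values were seen. Symbols came from RefSeq, which matched 27445 of 27655 genes. Promoters are from RefSeq build TAIR10.1. The coordinates printed come from that annotation alone. One locus of the class is not reported here.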

Additional observations from a re-analysis of the deposited data

Results flagged for a closer look

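Each value here is the log2 amount by which a stress combination departed from its added single effects, a test of the difference itself in edgeR's quasi-likelihood fit with Benjamini-Hochberg adjustment over all genes. In salt plus mannitol rosettes CYP83B1 stood above the sum by 0.85 ± 0.17 (adjusted p = 0.00591), CYP79B3 by 0.70 ± 0.17 (adjusted p = 0.0158), CYP79B2 by 0.74 ± 0.22 (adjusted p = 0.0471), UGT74B1 by 0.40 ± 0.12 (adjusted p = 0.0433) and ESP by 0.92 ± 0.25 (adjusted p = 0.0305), and IMD3 differed by -0.55 ± 0.15 (adjusted p = 0.0357). In salt plus heat rosettes CYP83B1 stood above the sum by 0.68 ± 0.17 (adjusted p = 0.0487). In mannitol plus heat rosettes AT1G54020 stood above the sum by 2.29 ± 0.51 (adjusted p = 0.00856), AOP1 by 0.74 ± 0.16 (adjusted p = 0.00684) and MBP1 by 1.04 ± 0.32 (adjusted p = 0.0477). Under all 3 stresses AT1G54020 stood above the sum by 2.90 ± 0.68 (adjusted p = 0.0111), with 2.22 without control 1 (adjusted p = 0.0514), and CYP83B1 by 0.92 ± 0.24 (adjusted p = 0.0194). The calls of CYP83B1 in salt plus mannitol and of AOP1 and AT1G54020 in mannitol plus heat held whichever library was left out. Watering was recorded for neither the control nor the heat group, so the departures of salt plus mannitol and of all 3 stresses cannot be told apart from an effect of watering. In the departures of salt plus heat and mannitol plus heat, an additive log2 effect of watering cancels.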

How the results depend on the processing

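No gene changed direction in any alternative: of 328 called pairs of a glucosinolate gene and a comparison, 221 were called in every one and 228 whichever single library was left out, and of 315 pairs among the listed genes outside the class 219 were called in every one. Leaving out 1 library at a time gave 6 to 13 called genes for salt against control (16 with all libraries), 9 to 16 for mannitol (15), 0 to 3 for salt plus heat against heat (5) and 2 to 8 for mannitol plus heat against heat (7). The departures gave 1 to 8 for salt plus mannitol (6), 0 to 3 for salt plus heat (1), 2 to 12 for mannitol plus heat (3) and 0 to 3 for all 3 stresses (2). Among synthesis genes it gave 5 to 10 for salt (11), 3 to 9 for mannitol (8) and 13 to 20 for heat (20), and among degradation genes 0 to 3 for salt (2). With library totals alone, salt against control gave 10 genes and its synthesis genes 7, salt plus heat against heat gave 3, and the salt plus heat departure gave 0. With only the groups compared in the fit, salt against control gave 27 and its synthesis genes 20, salt plus heat against heat 2, mannitol plus heat against heat 4, the salt plus heat departure 0 and that of all 3 stresses 1. Salt plus heat against heat gave 2 with limma. DESeq2 gave 10, 2, 6 and 5 for the departures of salt plus mannitol, salt plus heat, mannitol plus heat and all 3 stresses. The salt plus heat departure gave 0 with DESeq2-type scaling in edgeR, with no filter and with limma. The cause of these shifts was not tested. Replicate numbers did not pair the libraries: over 84 same-numbered pairs, deviations from the group means correlated at -0.335 to 0.282, and 10 of 24 libraries correlated best with their own number. With the number as a replicate block, salt plus heat against heat gave 3 and the salt plus heat departure 0, and the block moved no other count by over 1.5 times. Low genes such as AT1G54020, CYP81F2 under heat and IQD1 rest on few reads, and limma on log2(TPM + 1) gave smaller changes for the first (-1.44 under mannitol) and second (-1.50 under heat).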
